A study of Mus musculus with 10 samples.

Results

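*Hcar2* encodes the hydroxycarboxylic acid receptor that binds nicotinic acid (niacin), and it was followed here as 1 gene of the 31053 genes counted in CD45+ cells of the mouse brain. The gene was picked on its higher counts in microglia of mice without Nlrp3 and on its known role in microglia of amyloid models. Its values between Nlrp3 genotypes therefore describe that choice and carry no test. The comparison of mice with and without amyloid was tested, although that second ground bears on it, and the levels by cell state and cell type are descriptions, since the states and types are clusters of the same cells. RNA molecules were counted per cell by their unique molecular identifiers (UMIs), the tags of 10x Genomics 3' single-cell RNA sequencing, in 10 libraries, 1 for each genotype and age.

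The groups were littermates with or without a full-body deletion of *Nlrp3*, the sensor of an inflammasome, and with or without the APP/PS1 transgenes, which express mutant amyloid precursor protein and mutant presenilin 1 in neurons of the central nervous system. Mice without the transgenes, WT and NLRP3.KO, were sampled when 3, 6 or 9 months old. Mice with them, APP/PS1 and APP/PS1 NLRP3.KO, are represented here by libraries of 3 and 9 months. Every library pooled the whole brains of 3 mice (2 males and 1 female), dissociated in the presence of the transcription inhibitor actinomycin D, so that the spread within a pool cannot be seen. The annotation gives 3 batches, 1 for each age, so effects of age and of batch cannot be told apart. Each pair compared here lies within an age.

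Hcar2 is a Gi-coupled receptor, so its activation lowers cyclic AMP by way of inhibited adenylyl cyclase. Its ligands include nicotinic acid, the ketone body beta-hydroxybutyrate and butyrate. In adipocytes the receptor restrains lipolysis, in immune cells of the skin it triggers the prostaglandin release behind niacin flushing, and in the brain it is known from microglia close to amyloid plaques.

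The gene lies on the minus strand of chromosome 5 (GRCm38, the assembly that mm10 names, chr5:123863570-123865499, ENSMUSG00000045502.6 in GENCODE M21). It has a single exon of 1930 bases with a coding part of 1080 bases, and no other annotated gene overlaps it. *Nlrp3* is on another chromosome, 11. The neighbour of *Hcar2*, *Hcar1*, encodes the lactate receptor and lies on the same strand with 11236 bases between them (chr5:123876736-123880020). Since a close copy could share reads with *Hcar2*, both coding sequences were compared, and 665 of 1040 aligned bases (63.9%) were identical. The window below holds their longest identical run, 18 bases, with 20 bases at each side. It spans coding bases 665 to 722 of both genes (chr5:123864717-123864774 for *Hcar2* and chr5:123878905-123878962 for *Hcar1*, both read on the minus strand), and capitals mark the 44 of 58 bases that are identical.
Hcar2: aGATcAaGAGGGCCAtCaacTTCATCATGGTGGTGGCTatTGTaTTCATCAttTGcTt
Hcar1: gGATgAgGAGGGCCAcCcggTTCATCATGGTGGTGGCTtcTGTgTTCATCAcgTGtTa
The counted reads come from the 3' end of transcripts, and *Hcar1* had 3 UMIs in the 45472 cells used here, all in microglia.

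The annotation holds 45472 cells of the 10 libraries, 40547 of them microglia. Summed over its microglia, a library held 9357431 to 35107144 UMIs, and the median microglia held 3978 to 5985 UMIs. Of the markers of microglia, *Cx3cr1* stood at a mean of 4708 CPM over the 10 libraries in the cells so labelled, *P2ry12* at 3000.2 CPM and *Tmem119* at 1559 CPM, CPM being UMIs per 1000000 UMIs of the cells summed. The paper identified microglia by known signature genes, so these levels are no separate check of the label. Libraries shared few cell barcodes, 246 of 45225, and at most 0.405% of the smaller library of any 2. No *Nlrp3* UMI was counted in the 5 NLRP3.KO libraries, against 34.4 to 53.7 CPM in microglia of the 5 other libraries.

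*Hcar2* was rare but counted in microglia. In all, 1657 *Hcar2* UMIs were found in 1311 of 40547 microglia (3.23%, 95% exact binomial interval 3.06 to 3.41%), which gives 8.53 CPM. Of the positive cells, 1109 held 1 UMI, 132 held 2 and 70 held 3 or more, up to 12. The intervals of shares (exact binomial) and of CPM (exact Poisson) cover counting error only, and they do not include the spread between mice.

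In the libraries without the transgenes, *Hcar2* stood at 3.96 CPM in WT mice at 3 months (interval 3.30 to 4.71), 4.65 CPM at 6 months (3.68 to 5.79) and 7.76 CPM at 9 months (6.22 to 9.56). NLRP3.KO mice had 8.20 CPM at 3 months (7.17 to 9.33), 9.18 CPM at 6 months (7.84 to 10.7) and 9.99 CPM at 9 months (8.34 to 11.9). All 3 NLRP3.KO libraries were thus above all 3 WT libraries, although the intervals of both genotypes at 9 months overlapped. The same order of the 3 libraries against 3 was seen in 2.71% of the 12383 genes tested, and it is among the values on which the gene was picked. It held with mitochondrial and ribosomal protein genes left out (9.25 CPM in NLRP3.KO at 3 months, 9.06 CPM in WT at 9 months). Between the same libraries it failed for the share of positive cells (2.89% against 3.27%) and in homeostatic microglia (4.02 against 4.48 CPM). It also failed without cells of high doublet score (6.98 against 7.29 CPM). WT was highest at 9 months, but each age is 1 library per genotype and 1 batch.

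Libraries with amyloid were higher at 9 than at 3 months in both Nlrp3 genotypes, and at 3 months the intervals of the genotypes did not overlap. APP/PS1 mice had 4.18 CPM at 3 months (interval 3.31 to 5.20) and 19.9 CPM at 9 months (17.4 to 22.8). APP/PS1 NLRP3.KO mice had 8.69 CPM at 3 months (7.74 to 9.72) and 24.9 CPM at 9 months (21.8 to 28.3). The 2 amyloid libraries at 9 months were the highest of the 10, and their intervals overlapped none of the other 8.

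The share of microglia with at least 1 *Hcar2* UMI ran in much the same order, but NLRP3.KO mice at 3 months were below WT mice at 9 months. It was 1.64%, 2.03% and 3.27% in WT mice and 2.89%, 3.8% and 3.98% in NLRP3.KO mice at 3, 6 and 9 months. In APP/PS1 mice it was 2.34% at 3 months and 6.97% at 9 months, and in APP/PS1 NLRP3.KO mice 2.96% and 9.17%. Because deeper cells show a rare gene more often, the share was also computed for cells thinned to 1500 UMIs, a depth that every microglia reached. Thinned shares ran from 0.576% in WT mice at 3 months to 2.87% in APP/PS1 NLRP3.KO mice at 9 months, and the 2 amyloid libraries at 9 months remained highest.

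**Figure D1:**
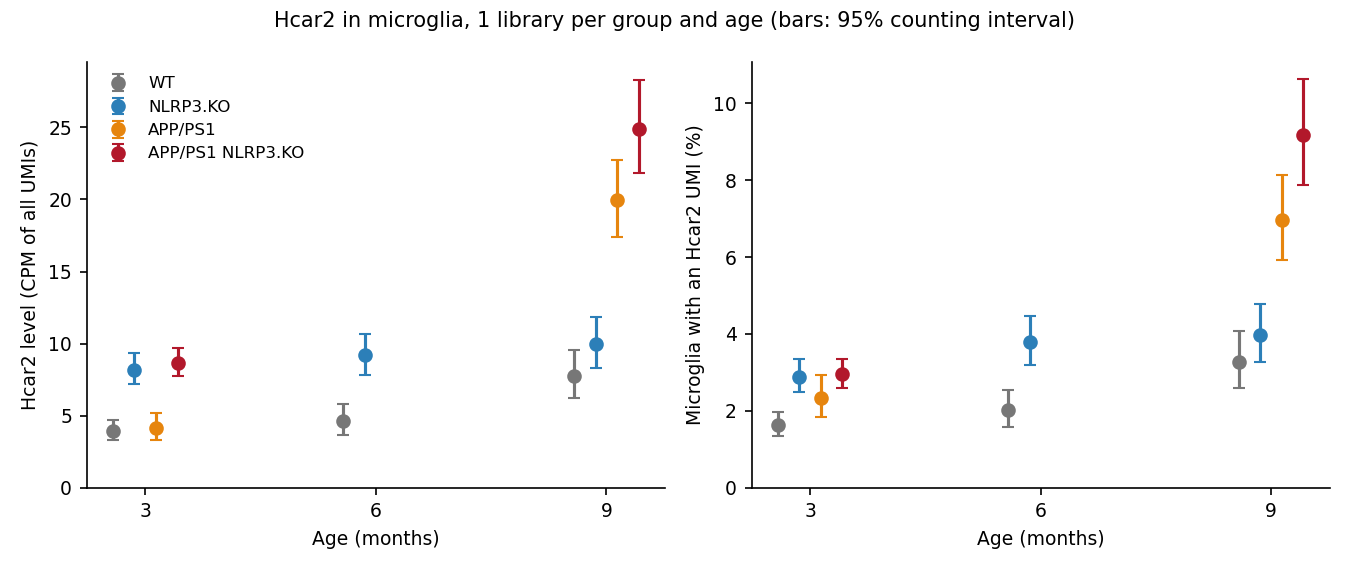
*Hcar2* in microglia of each library by age in months, as CPM (left) and as percent of microglia with at least 1 *Hcar2* UMI (right), coloured by group, with bars for the 95% counting interval. The 2 amyloid libraries at 9 months stand at 19.9 and 24.9 CPM, and the other 8 lie between 3.96 and 9.99 CPM.

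To ask whether amyloid goes with *Hcar2* in microglia, each APP/PS1 library was set against the library without transgenes of the same age and Nlrp3 genotype. At 3 months the level was 1.06-fold in mice with Nlrp3 (counting interval 0.789 to 1.41) and 1.06-fold in mice without it (0.890 to 1.26). At 9 months it was 2.57-fold (2.0 to 3.33) with Nlrp3 and 2.49-fold (2.0 to 3.12) without it. *Hcar2* was thus higher with amyloid in 4 of 4 pairs, with ratios near 1 in both pairs at 3 months and well above it in both pairs at 9 months. In a random thinning of the cells to 1500 UMIs it was higher in 3 of 4 pairs (mean log2 ratio 0.49, SD 0.65, exact sign-flip permutation test, p = 0.38). APP/PS1 mice at 3 months then had 3.46 CPM against 3.99 CPM in WT mice. The expected share of positive cells at that depth was higher in 4 of 4 pairs, with 0.596% against 0.576% in this pair. The direction alone is common, since 8.6% of the 12282 genes tested were higher in 4 of 4 pairs.

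Across all genes and all 4 pairs, the difference did not pass the test. The log2 fold change of *Hcar2* was 0.72 (SE 0.25, edgeR quasi-likelihood test with the pair as a block, adjusted p = 0.60), with adjusted p between 0.42 and 0.91 over 10 other fits of this comparison. The same fit called 7 genes higher with amyloid (0.057%) and 0 lower (0%), with 918 genes at an unadjusted p under 0.05. *Hcar2* was among these 918, at rank 473 (unadjusted p = 0.023 by the same edgeR quasi-likelihood test). DESeq2 called 51 higher and 1 lower. The log2 ratios of CPM averaged 0.71 (SD 0.73). By an exact two-sided permutation test that flips the signs of the 4 ratios p was 0.13, the smallest that this number of pairs can reach. For the share of positive cells the mean difference was 2.41 percentage points (SD 2.44, n = 4 pairs, higher in 4 of 4, same exact permutation test, p = 0.13), and it was 1.49 percentage points without the NLRP3.KO pair at 9 months and 0.741 in cells thinned to 1500 UMIs.

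The spread between the pairs lay between the ages, so the amyloid effect at 9 months minus that at 3 months was tested as well, a test added after the values had been seen. It was 1.34 on the log2 scale (SE 0.16, edgeR quasi-likelihood test across all genes, adjusted p = 0.29) and did not pass. In homeostatic microglia alone it was 0.38 (SE 0.25, adjusted p = 0.99). The fit over all microglia called 0 of 12282 genes (0%), although 601 had an unadjusted p under 0.05, and only edgeR was run for it. *Hcar2* ranked 3 of these 12282 genes by p, and 1931 of 11887 in homeostatic microglia. Because the test was chosen on the values of *Hcar2* itself, its rank lends no weight to the difference. The 2 ages are also 2 batches, which cannot be told apart, while the pairs within them do not cross batches.

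Within homeostatic microglia (HM, the largest state with 31953 cells) the mean amyloid difference over the 4 pairs was smaller and did not pass the test. At 3 months HM had 2.71 CPM in WT, 3.28 CPM in APP/PS1, 4.02 CPM in NLRP3.KO and 5.14 CPM in APP/PS1 NLRP3.KO mice. At 9 months the levels in the same order were 4.48, 7.31, 5.90 and 9.19 CPM. The counting intervals overlapped within each of these 4 pairs. HM of amyloid mice had the higher level in 4 of 4 pairs, 1.21- to 1.63-fold, with a log2 fold change of 0.45 (SE 0.14, edgeR quasi-likelihood test across all genes, adjusted p = 0.90). In HM the fit called 0 of 11887 genes (0%), against 544 at an unadjusted p under 0.05 and 9 called by DESeq2. *Hcar2* was among these 544, at rank 112 (unadjusted p = 0.0091 by the same edgeR quasi-likelihood test).

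Cells outside HM carried most of the amyloid difference at 9 months, where HM accounted for 0.634 of the 12.2 CPM between APP/PS1 and WT mice and for -0.11 of the 14.9 CPM between APP/PS1 NLRP3.KO and NLRP3.KO mice. Such a part follows the number of HM as well as their level. HM were 76.6% of microglia in WT and 58.9% in APP/PS1 mice, and 78.3% in NLRP3.KO and 53.7% in APP/PS1 NLRP3.KO mice. The level within HM was 1.63-fold and 1.56-fold with amyloid in these 2 pairs. Disease-associated microglia (DAM) were 2.34% of microglia in WT and 11.7% in APP/PS1 mice at 9 months, and they contributed 0.265 of the 7.76 CPM in the first and 6.89 of the 19.9 CPM in the second. In APP/PS1 NLRP3.KO mice at 9 months DAM contributed 9.40 of 24.9 CPM. Microglia with immediate early genes (IEG) contributed 1.76 CPM in WT and 4.53 CPM in APP/PS1 mice at 9 months, and HM contributed 3.26 and 3.90 CPM. The paper describes the IEG signature as a known response to dissociating the tissue, and its part in these levels was not tested. With every library set to the same mix of states, the ratios at 9 months were 1.60 with Nlrp3 and 1.52 without it. At 3 months they were 0.954 and 0.825, so that 2 of 4 pairs were higher (mean log2 ratio 0.23, SD 0.48, n = 4, exact sign-flip permutation test, p = 0.5). Interferon-response microglia of NLRP3.KO mice enter the 0.825 at 52.3 CPM, and 6 cells held 38 of their 55 *Hcar2* UMIs.

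Within the states, the amyloid difference was not uniform. In DAM at 9 months *Hcar2* stood at 10.3 CPM in WT and 45.8 CPM in APP/PS1 mice. Without Nlrp3 the DAM levels were 20.9 CPM, and 59.6 CPM with amyloid. In DAM at 3 months it was 12.4 and 22.0 CPM with Nlrp3 and 73.5 and 65.9 CPM without it. DAM and IEG were higher with amyloid in 3 of 4 pairs, as was PM, while TM and IRM were higher in 1 of 4. The DAM count rests on 1 cell, since without the cell with the most UMIs, 3 of them, DAM of APP/PS1 mice at 3 months stood at 9.36 CPM, below WT. IEG at 9 months had 40.9 CPM in WT and 47.8 CPM in APP/PS1 mice, and without Nlrp3 17.0 CPM, or 58.6 CPM with amyloid. Outside HM, a state of a library held at most 618 cells, and the direction of a pair can rest on few UMIs.

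**Figure D2:**
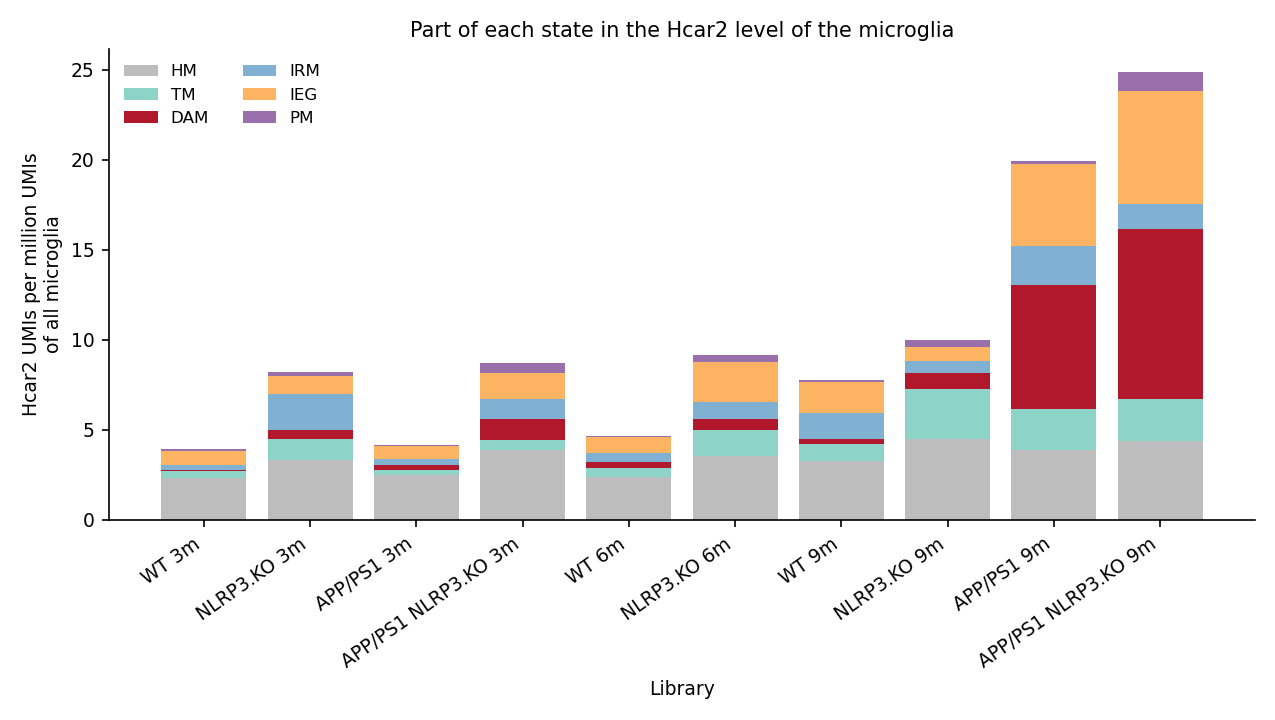
*Hcar2* UMIs per 1000000 UMIs of all microglia in each library, stacked by the state of the cell that held them, so that each bar ends at the library's CPM. The DAM part reaches 6.89 and 9.40 CPM in the 2 amyloid libraries at 9 months and is at most 1.14 CPM in the other 8.

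Between Nlrp3 genotypes, the contrast on which the gene was picked, *Hcar2* was higher without Nlrp3 in 5 of 5 pairs of the same age and background. The ratio was 2.07 at 3 months without amyloid (counting interval 1.66 to 2.59), 2.08 at 3 months with amyloid (1.62 to 2.69) and 1.98 at 6 months (1.5 to 2.62). At 9 months it was 1.29 without amyloid (0.974 to 1.71) and 1.25 with amyloid (1.03 to 1.51). All pairs were higher, with those at 9 months closest to 1. The mean log2 ratio was 0.75 (SD 0.38, n = 5 pairs), and 3.26% of the 12383 genes tested were higher in 5 of 5 pairs. This fit called 1 gene higher (0.00808%) and 4 lower (0.0323%), and no p is given for *Hcar2*. These pairs share libraries with the amyloid pairs.

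Other views of the same counts share the choice of the gene and are no separate evidence of its direction. Within HM, which are most of these cells, the ratio was 1.26 to 1.61 in the 5 pairs (mean log2 ratio 0.53, SD 0.16). With the mix of states held fixed, the mean log2 ratio was 0.69 (SD 0.43), and with cells thinned to 1500 UMIs it was 0.83 (SD 0.29). By state, the level was higher without Nlrp3 in 5 of 5 pairs in HM, DAM and proliferating microglia (PM), in 4 of 5 in transitioning (TM) and IEG microglia and in 3 of 5 in interferon-response microglia (IRM). In DAM the NLRP3.KO libraries stood at 73.5, 31.3 and 20.9 CPM at 3, 6 and 9 months, and the WT libraries at 12.4, 19.8 and 10.3 CPM. DAM of APP/PS1 NLRP3.KO mice had 65.9 and 59.6 CPM at 3 and 9 months, against 22.0 and 45.8 CPM in APP/PS1 mice. The DAM of a library numbered 24 to 253 cells, so these levels rest on few UMIs. The same holds for PM, which numbered 56 to 166 cells and held 1 *Hcar2* UMI in WT mice at 6 and at 9 months.

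**Figure D3:**
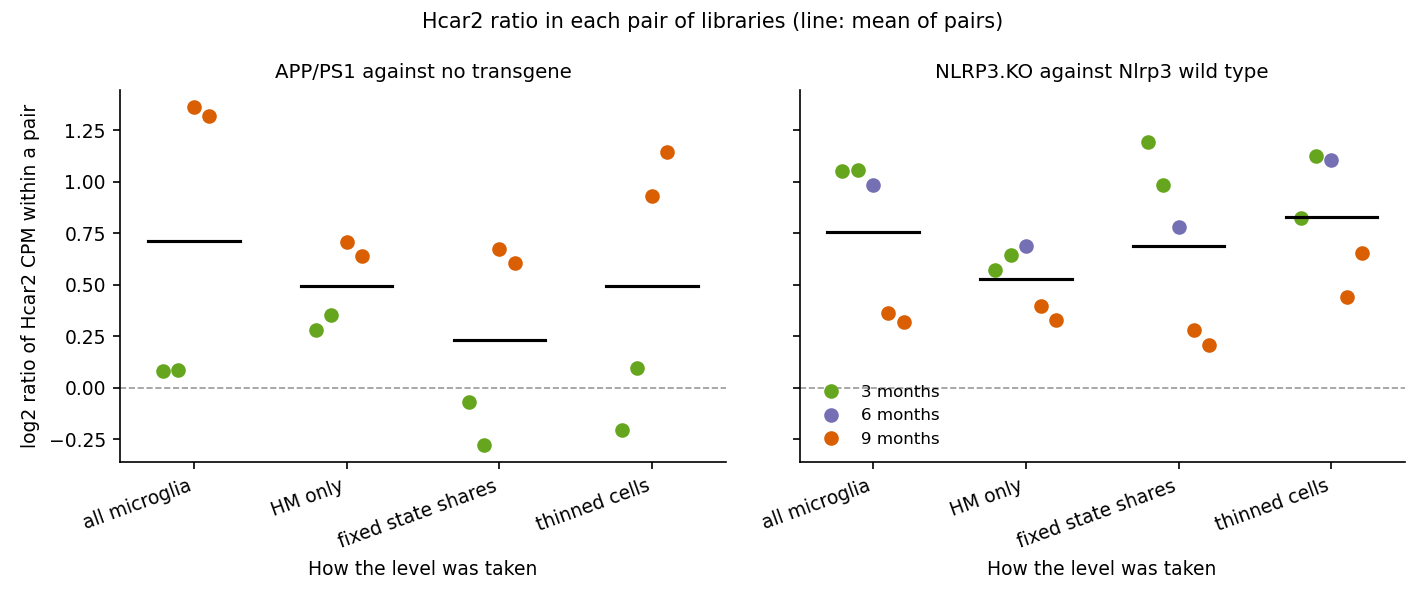
The log2 ratio of *Hcar2* CPM in each pair of libraries, for amyloid (left, 4 pairs) and for Nlrp3 deletion (right, 5 pairs), coloured by age, with a line for the mean of the pairs and a dashed line at no difference. The level was taken over all microglia, over HM, at fixed shares of the states or in cells thinned to 1500 UMIs, and the amyloid pairs at 3 months run from -0.28 to 0.35 over these 4 views.

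Among the states, *Hcar2* was highest in DAM and lowest in HM. Pooled over libraries, DAM had 44.2 CPM with 18.0% positive cells, IEG 26.0 CPM with 10.5%, IRM 17.5 CPM with 5.46%, TM 14.8 CPM with 6.26%, PM 11.1 CPM with 5.32% and HM 4.34 CPM with 1.89%. At 1500 UMIs per cell the shares were 5.24% in DAM, 3.40% in IEG, 2.07% in TM, 1.93% in IRM, 1.49% in PM and 0.651% in HM. Median depth was 5726 UMIs per cell in DAM, 5408 in IEG, 4970 in TM, 4638 in IRM and 4366 in HM, the order of the shares of positive cells, and 5796 in PM, which stood out of it. The part of depth in these levels was not tested beyond the thinned shares. HM were 78.8% of the microglia and held 38.4% of the *Hcar2* UMIs, whereas DAM were 2.22% and held 15.5%. These states are from the deposited annotation of microglia alone. The annotation of all CD45+ cells divides the same microglia otherwise, with 1416 DAM, 1237 IEG and 3600 TM, against 901, 2094 and 2538 here. There DAM held 357 *Hcar2* UMIs, against 257 here. The order by CPM was the same, but positive shares were 6.11% in IRM, 5.32% in PM and 4.75% in TM. Median depth there was 4655 UMIs in IRM and 4764.5 in TM, so it did not follow the shares.

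The order of the states was less sharp from library to library. As mean ± SD over 10 libraries, DAM had 36.1 ± 23.3 CPM, IEG 27.8 ± 15.7, IRM 18.5 ± 13.5, TM 15.5 ± 9.18, PM 9.95 ± 6.71 and HM 5.0 ± 2.03 CPM. DAM, IEG, IRM and TM were each above HM in 10 of 10 libraries, and PM in 7 of 10. The mean difference between neighbours in this order was smaller than its SD. DAM exceeded IEG by 8.35 CPM on average (SD 24.6, higher in 7 of 10 libraries), IEG exceeded IRM by 9.27 CPM (SD 19.5, 9 of 10), IRM exceeded TM by 3.06 CPM (SD 11.96, 7 of 10), TM exceeded PM by 5.52 CPM (SD 8.64, 9 of 10) and PM exceeded HM by 4.95 CPM (SD 5.85, 7 of 10). The ends of the order were further apart, with DAM 31.2 CPM above HM (SD 22.4).

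**Figure D4:**
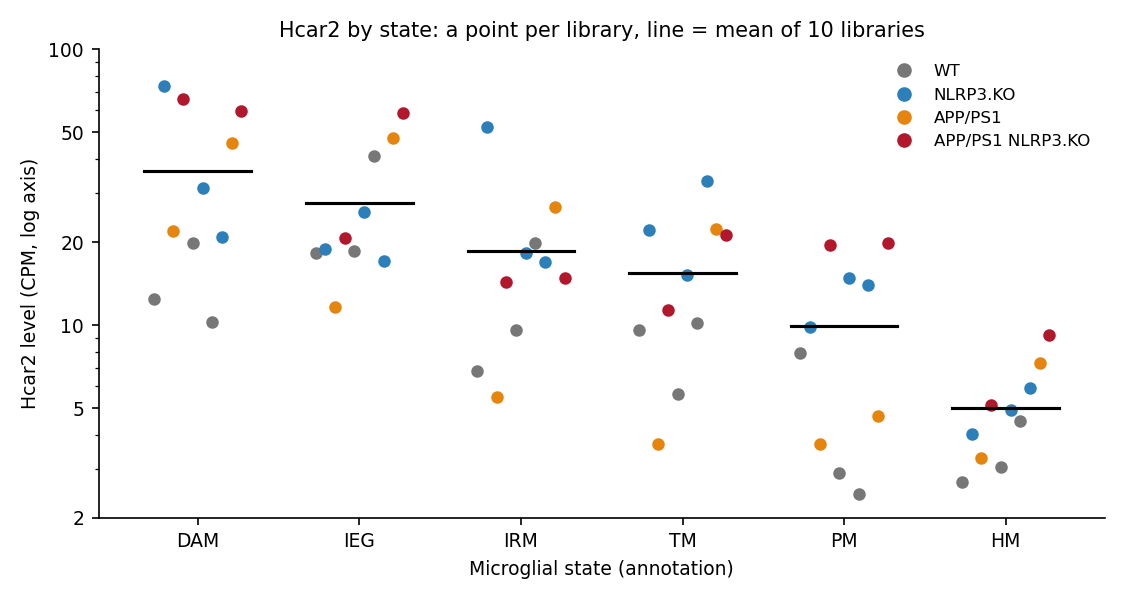
*Hcar2* CPM (log axis) in each microglial state, with a point per library coloured by group, in the order of the libraries from 3 to 9 months, and a line for the mean of the 10 libraries. DAM range from 10.3 to 73.5 CPM and HM from 2.71 to 9.19 CPM.

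Cells with many *Hcar2* UMIs were spread over states and were uneven between libraries. The 70 microglia with 3 or more UMIs included 26 DAM, 19 IEG, 12 IRM, 5 TM, 4 PM and 4 HM cells. By library they numbered 17 of 2167 microglia in APP/PS1 and 17 of 1755 in APP/PS1 NLRP3.KO mice at 9 months, 15 of 8208 in APP/PS1 NLRP3.KO and 11 of 5948 in NLRP3.KO mice at 3 months, 4 of 3657 in NLRP3.KO mice at 6 months and 0 to 2 in the other 5. Among DAM, 16.05% of positive cells held 3 or more UMIs, and among HM 0.662%. In NLRP3.KO mice at 3 months 6 IRM held 38 UMIs, 1 of them 12, and IRM of that library stood at 52.3 CPM, or 41.1 CPM without that cell. Without the highest cell of each library the mean log2 ratio was 0.75 between Nlrp3 genotypes and 0.72 for amyloid.

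The doublet score of the annotation moved with the *Hcar2* count. It was over 0.5 in 27.1% of the microglia with 3 or more UMIs, 15.95% of those with 1 or 2 and 7.33% of those with none, and the median total was 7068, 5097 and 4488.5 UMIs. Without the cells over 0.5 the amyloid log2 fold change was 0.75 (SE 0.22, edgeR quasi-likelihood test, adjusted p = 0.42) and the mean log2 ratio between Nlrp3 genotypes 0.71 (SD 0.40).

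Other CD45+ cells held 74 *Hcar2* UMIs in 4925 cells. Border-associated macrophages (BAM), which line the vessels and membranes of the brain, had 6.96 CPM (interval 4.87 to 9.63, 4.00% of 725 cells positive), and BAM with *Lyve1* had 6.32 CPM (3.46 to 10.6), both near the level of all microglia. Monocytes had 3.57 CPM and non-classical monocytes 3.45 CPM from 6 and 3 UMIs, and neutrophils, a cell type known for *Hcar2*, had 2.97 CPM from 3 UMIs in 79 cells (0.612 to 8.67). Among lymphocytes, 2 of 1598 T cells were positive (0.13%, interval 0.0152 to 0.451%) at a median of 5810 UMIs per cell, and 3 of 533 B cells (0.563%, interval 0.116 to 1.64%) at a median of 4671 UMIs. In NK cells 1 of 548 was positive. The share in HM was 1.89% (1.74 to 2.05%) at a median of 4366 UMIs, and the part of free RNA in any of these shares was not tested. None of 204 NKT cells, 189 cDC2 or 157 ILC2 was positive, which by a limit of 3 counts allows shares of cells with a UMI of up to 1.47%, 1.59% and 1.91% and sets no limit on cells that express the gene. Over the other cells of a library the level was 1.02 to 3.59 CPM and was higher with amyloid in 1 of 4 pairs and without Nlrp3 in 3 of 5.

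Markers of other cell types were also counted inside the microglia. The 8 monocyte markers summed to 6.46 to 13.5 CPM in WT, 7.48 to 9.73 in NLRP3.KO, 8.62 to 20.2 in APP/PS1 and 11.3 to 14.5 in APP/PS1 NLRP3.KO libraries. The 8 markers of border macrophages summed to 5.88 to 9.24, 5.65 to 10.5, 9.14 to 10.4 and 10.5 to 15.7 CPM in the same order. The highest library was one with amyloid for both lists, while libraries with and without amyloid overlapped, and their part in the *Hcar2* difference was not tested. The 10 neutrophil markers summed to 235 to 305 CPM over all libraries, and the 6 B cell markers to 308 to 349 CPM, and the groups overlapped in both. Markers of astrocytes and neurons summed to 210 to 249.8 CPM over all libraries. Microglia were 71.4% and 78.9% of cells in the amyloid libraries at 9 months and 82.9 to 95.3% in the other 8.

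The genes around the receptor were read in the same fits, from lists chosen with earlier results of these data known. Of 5 tested genes for receptors of metabolites, *Hcar2* among them, none passed for amyloid (median log2 fold change 0.27, against 0.00 over all genes). *Gpr84*, a receptor of medium-chain fatty acids, had a log2 fold change of 0.27 (adjusted p = 0.37), and *Gpr65*, a sensor of acid, 0.52 (adjusted p = 0.54), both by edgeR's quasi-likelihood test. The short-chain fatty acid receptors *Ffar2* and *Ffar3* had 1 and 0 UMIs in microglia. Of 20 tested genes for G protein subunits, adenylyl cyclases and arrestins, none passed (median -0.03), and *Gnai2*, the inhibitory subunit with 855 CPM on average, had 0.02. None of 7 genes of ketone body handling (median 0.02), 8 genes of nicotinic acid and NAD metabolism (median 0.01) or 7 genes of prostaglandin synthesis (median 0.02) passed. *Oxct1*, which acts in ketone body use, had 0.02 and *Ptgs1*, a cyclooxygenase, had -0.13.

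The list genes that passed for amyloid were 2 DAM genes and 1 NF-kB gene. Of 19 tested DAM genes 2 rose with amyloid and 0 fell, and the median log2 fold change was 0.92, with all 19 above 0. Over all genes 0.057% rose and 51.3% were above 0. *Gpnmb*, a glycoprotein of lysosome-rich phagocytes, rose (adjusted p = 0.026) from 0.0882 to 4.44 CPM with Nlrp3 and from 0.232 to 14.9 CPM without it at 9 months, whereas at 3 months it was at 0 CPM in 3 libraries and 0.171 CPM in APP/PS1 NLRP3.KO mice. No fold is given for it, since it would rest on libraries with few or no UMIs. *Ch25h*, which makes 25-hydroxycholesterol, rose by a log2 fold change of 3.53 (SE 0.33, adjusted p = 0.028), from at most 1.59 CPM in the 4 libraries without transgenes to at least 1.83 CPM with them. Of 16 NF-kB genes 1 rose, the chemokine gene *Ccl4*, by 1.34 (SE 0.13, adjusted p = 0.028), with a median of 0.13 over the list. Without either pair of mice lacking Nlrp3 the fit called 0 genes, these 3 included. None of 12 interferon genes passed (median 0.62), although 12 of 12 were above 0 and 10 were higher at an unadjusted p under 0.05, as were 626 of the 12282 genes, nor did any of 14 immediate early genes (median 0.13) or of 12 homeostatic genes (median -0.05). Between Nlrp3 genotypes, where 5 of all 12383 genes were called, no gene of the 10 lists passed, with *Hcar2* left out of its list, and the medians lay between -0.03 and 0.05. All adjusted p-values here are from edgeR's quasi-likelihood test across all genes.

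The genes whose level over the 10 libraries was most like that of *Hcar2* were ranked among 11389 genes by Pearson's r of log2(CPM + 1), as a description. They were *Gltp*, which moves glycolipids between membranes (r = 0.961, Spearman's rho = 0.952), *Gm14005* (0.947), *Nlrc3* (0.942), *Phlda3* (0.937), *Txn1*, a thioredoxin (0.934), *Itpr1*, a calcium channel of the endoplasmic reticulum (0.930), *Fth1*, the ferritin heavy chain (0.929), *Spp1*, osteopontin (0.929), *Gsn*, gelsolin (0.928) and *St8sia6* (0.927). Their course over the libraries differed in height. *Gltp* went from 80.9 CPM in WT mice at 3 months to 113 CPM in APP/PS1 NLRP3.KO mice at 9 months, whereas *Spp1* went from 1.59 CPM in WT mice at 6 months to 74.1 CPM in that library. Without the 2 amyloid libraries at 9 months r lay between 0.709 and 0.890 for these 10 genes (n = 8). Age, batch and the share of DAM also differ between these libraries, and the list is loose, since 2 of the 10 remained by Spearman's rho and 6 with a minimum of 1000 UMIs.

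Across 19 microglial states and cell types of at least 50 cells, with 12213 genes compared, the ranking was led by *Kcnj2*, a potassium channel (r = 0.919), *Gde1* (0.914), *Tcn2*, a carrier of vitamin B12 (0.909) and *Trem2*, the lipid-sensing receptor of the DAM response (0.907). *9530082P21Rik* (0.899), *C5ar2* (0.898), *Creg1* (0.896), *Ncstn* (0.895) and *Man2b2* (0.893) were also among the first 10. *Kcnj2* had 41.8 CPM in DAM, 52.8 CPM in IEG and 21.7 CPM in HM, against 1.35 CPM in T cells. All points pool the same 10 libraries, and microglia and lymphocytes form separate ends of each relation.

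Within HM, the 604 cells with an *Hcar2* UMI were set against the 31349 HM cells without one in the same library, which gives a description, as the cells were split on the gene. Of 2656 genes with at least 200 UMIs in the positive cells, 20 were higher and 8 lower in 10 of 10 libraries. That minimum was set on the positive cells alone, which favours genes that are high in them. The counts of higher and lower genes and the ranking below are therefore not free of this choice. The largest mean log2 ratio among these belonged to *Ccl12*, a chemokine that attracts monocytes, at 0.92 (SD 0.53), with 150 CPM in positive and 70.8 CPM in negative cells. *Gpr84*, another Gi-coupled receptor, followed at 0.67 (SD 0.36), with 213 and 131 CPM. *Gm26740* (0.46), *Rbpj*, the nuclear partner of Notch (0.34), *Bhlhe41*, a transcription factor (0.29), *Sh2b3* (0.25), *Mtus1* (0.25), *St3gal5*, a ganglioside synthase (0.24), *H2-DMa*, of MHC class II loading (0.22), and *Rex1bd* (0.20) came next.

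With cells matched on their total UMIs, *Ccl12* was at 0.90 and *Gpr84* at 0.66, and 13 genes were higher and 8 lower in 10 of 10 libraries, with 5 of the first 10 in common. Median depth of positive cells was 4032.5 to 5815 UMIs over the libraries, and that of negative cells 3839 to 5840.5. Without matching, the 8 DAM genes counted had a median log2 ratio of 0.02, beside 0.02 over the 2656 genes, with *Apoe* at -0.01 (SD 0.87) and *Trem2* at 0.05 (SD 0.12). With matching these medians were 0.02 and -0.0037. Of the 12 homeostatic genes *Selplg* (0.09) was higher and *Fcrls* (-0.09) lower in 10 of 10 libraries both with and without matching. *Tmem119* (0.17) was higher in 10 of 10 without and 9 of 10 with matching, and *Olfml3* (0.12) in 8 of 10 and 10 of 10.

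**Figure D5:**
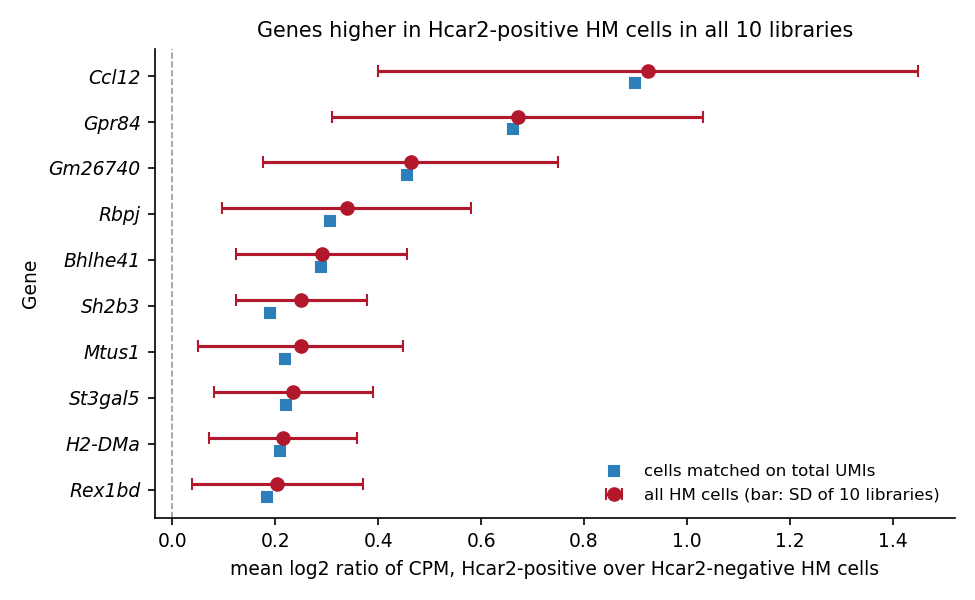
The 10 genes with the highest mean log2 ratio of CPM, *Hcar2*-positive over *Hcar2*-negative HM cells, among those higher in 10 of 10 libraries, with bars for the SD over libraries (circles) and the mean with cells matched on total UMIs (squares). *Ccl12* at 0.92 and *Gpr84* at 0.67 lie above the other 8, which run from 0.20 to 0.46. Genes entered by at least 200 UMIs in the positive cells alone, which favours genes that are high there.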

How the data were processed

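Per the paper's methods, reads were mapped with STAR in Cell Ranger (mm10), Scater served to drop outlier cells, and Seurat gave the clusters after harmony. The authors deposited UMI counts per gene and cell without normalization, and with each cell its type or state, a batch number, its percent of mitochondrial UMIs and, as deposited fractions between 0 and 1, its ribosomal share and a doublet score. How the score was made is not given in the sources used here. Of the sample names, 2 (6897 cells), both for mice with the transgenes at 6 months, matched no sample description and were not used.

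Counts were summed over the microglia, or HM, of each library, since cells are not replicates. After filterByExpr and TMM scaling, edgeR 4.0.16 (R 4.3.3) gave quasi-likelihood tests with the pair of libraries as a block, and genes were called at a Benjamini-Hochberg adjusted p under 0.05. The amyloid fit had 3 residual degrees of freedom, the Nlrp3 fit 4 and the fit of the amyloid effect between ages 2. DESeq2 1.42.0, other scaling, no filter, additive terms, no doublets, thinned cells and leaving out each pair were tried. P-values measure the spread of the difference between pairs of pooled libraries, 1 library per group and age, and not the spread between mice. In the edgeR fits that spread was estimated with information shared across genes. The SE given with a fold change is its absolute value divided by the square root of the F statistic.

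*Hcar2*, the gene lists and the rules for named genes were chosen with earlier results of these data known. Named genes are *Hcar2*, *Nlrp3*, list genes past the test with a few abundant examples, and the 10 leading genes of each ranking, 1 of which is not reported here. *Gpr65*, *Gpr84*, *Ffar2*, *Ffar3*, *Tmem119*, *Selplg*, *Fcrls*, *Olfml3*, *Apoe*, *Trem2* and *Ptgs1* in the lists were chosen after their values were seen. Ratios between positive and negative HM cells used a prior count of 0.5. A count of 0 was read against a limit of 3 counts. Sequences and positions are from GENCODE M21.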

Additional observations from a re-analysis of the deposited data

Results flagged for a closer look

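At fixed shares of the states, the amyloid difference of *Hcar2* went opposite ways at the 2 ages in both Nlrp3 genotypes. At 3 months APP/PS1 minus WT was -0.207 CPM and APP/PS1 NLRP3.KO minus NLRP3.KO was -1.80 CPM, and at 9 months the same differences were 4.57 and 4.84 CPM. In IRM, the difference between Nlrp3 genotypes, on which the gene was picked, was 45.5 CPM without and 8.89 CPM with amyloid at 3 months, and -2.91 and -12.0 CPM at 9 months. Neither difference between ages was tested, and each value rests on 1 library a group. In NLRP3.KO mice at 3 months, whose IRM enter both differences, 6 IRM held 38 of the 55 *Hcar2* UMIs of that state.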

How the results depend on the processing

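*Hcar2* was higher with amyloid, and short of the threshold, in the 10 alternative fits for microglia and the 8 for HM, with log2 fold changes of 0.48 to 1.0 and 0.39 to 0.52. The sign-flip tests of 4 pairs cannot go below 0.13, so their p says nothing about stability. By mean log2 ratio it was 0.23 at fixed shares of the states, with 2 of 4 pairs higher, and 0.49 in a random thinning of the cells, with 3 of 4. Leaving out 1 pair gave 0.48 to 1.0 in microglia and 0.39 to 0.52 in HM. The difference in share of positive cells, 2.41 percentage points, ran from 1.49 to 3.20 without 1 pair and was 0.741 in thinned cells. The direction of the Nlrp3 ratio was set by the choice of the gene, so its 11 alternatives say nothing about stability. The difference between ages kept its direction in 3 alternatives and was 0.38 in HM (adjusted p = 0.99).

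Counts of genes called moved more, and the cause was not tested. For amyloid 7 became 52 with DESeq2, 13 in thinned cells and 0 in HM, and 0 to 17 without 1 pair. It was 0 without either pair of mice lacking Nlrp3, 4 without the WT pair at 3 months and 17 without that at 9 months. For Nlrp3 5 became 12 with DESeq2 and 3 with a fold limit, and 3 to 16 without 1 pair, namely 3 without either pair at 3 months and 16 without the WT pair at 9 months. Genes higher in positive HM cells fell from 20 to 13 with matched UMIs. Depth limits *Hcar2* to 79 to 305 UMIs a library. No paired analysis by replicate number was possible because the numbers name libraries of different ages.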
